A study of Macaca mulatta with 20 samples.

Results

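Genes that detoxify superoxide, hydrogen peroxide and reactive electrophiles, or that bind metals, were followed through the life of the rhesus macaque corpus luteum, the progesterone-secreting gland left in the ovary after ovulation. The group comprised 32 genes of the 14132 with a probe set annotated to exactly 1 symbol. They were taken by symbol: superoxide dismutases, catalase, glutathione peroxidases, peroxiredoxins, the catalytic and modifier subunits of glutamate-cysteine ligase, soluble and microsomal glutathione transferases, and metallothioneins. Where several probe sets carried a symbol, the brightest on average across the 20 arrays stood for the gene. GPX1, GPX3, PRDX1, PRDX5, TXN, GSR, HMOX1, NQO1 and the thioredoxin reductases had no probe set with that symbol alone and are not among the 32.

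Superoxide dismutases convert superoxide to hydrogen peroxide, which catalase, peroxiredoxins and glutathione peroxidases then reduce. Glutathione, whose synthesis is limited by glutamate-cysteine ligase, supplies electrons to the peroxidases and is joined to electrophiles by the glutathione transferases, while metallothioneins are small cysteine-rich proteins that bind zinc and copper. In steroid-making glands, electrons that leak from the mitochondrial and microsomal cytochrome P450 chains are a known source of reactive oxygen.

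Total RNA came from corpora lutea removed from female macaques in natural, regular cycles, flash frozen whole, and each hybridised to 1 Affymetrix rhesus array. The 5 groups of 4 arrays, labelled biological replicates, were timed from the luteinising hormone surge. Early glands were taken on days 3 to 5, during luteinisation. Mid glands came from days 7 to 8, when progesterone output peaks, and mid-late glands from days 10 to 12, ahead of luteolysis. Late glands, from days 14 to 16, were in functional regression, when progesterone secretion ends, and very-late glands, from days 18 to 19, were in structural regression at menses. No group received an agent or carried an altered allele, and the animals' ages are not given in the sources used here. Values are log2 expression values after robust multi-array averaging (RMA), a background correction, normalisation and probe summary, so a difference of 1 is a 2-fold difference. The scale has no true zero, and levels of different probe sets cannot be set against each other.

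As a floor, the 683 probe sets for viral genomes had a median of 3.42 and a 95th percentile of 4.29 over the arrays. The highest stage mean lay above that percentile for 29 of the 32 genes. GPX2, PRDX6 and GPX6 lay below it, at 4.20, 3.25 and 3.69, so a level of these probe sets could not be told from background. GPX2 has a second probe set with a stage maximum of 4.33, just above the floor, and limma called no stage difference in it (adjusted p = 0.0772). The label of the tissue was borne out by its markers: all 6 measured luteal steroid-cell genes were above the floor, and STAR, the carrier of cholesterol into mitochondria, had stage means from 13.19 to 13.37 up to the late stage. In very-late replicate 1 the GAPDH 3′ minus 5′ signal, a measure of RNA degradation, was 2.70, against 0.831 to 1.78 on the other 19 arrays, although the same measure for actin was 0.117. The correlation of an array with the rest of its stage was lowest, at 0.973, for very-late replicate 2. Mitochondrially encoded probe sets averaged 7.02 to 8.93 on 7 arrays (early replicate 4, all 4 mid, mid-late replicate 1 and very-late replicate 2) and 11.5 to 12.5 on the other 13. Comparisons of mid with early or mid-late therefore cannot be fully told apart from this split.

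Most of the group changed over luteal life, and the largest step was the last, where 13 genes fell and 1, SOD2, rose. In the limma test of any difference among the 5 stages, 20 of the 32 genes (62.5%) had an adjusted p under 0.05, against 33.6% of all genes. The very-late stage had the lowest mean for 20 of the 32 and for 18 of the 20 that passed. Comparing mid with early, limma called no member higher or lower (background 0.248% of genes higher and 0.347% lower), and at an unadjusted p under 0.05 there were 1 higher and 3 lower. GSTA1 became the single call of that comparison when early replicate 3 was left out. From early to mid-late, 1 gene rose and 2 fell, against 1.75% and 4.56% of all genes. From early to late, 2 rose and 6 fell, against 4.22% and 8.07% of genes, and with cyclic loess scaling the split was 3 and 5. That count of 8 dropped to 4 without early replicate 3 or without late replicate 1, 2 or 3, the 4 being GSTA1, GSTO1, MT2A and PRDX4 each time. From early to very-late, 2 rose and 16 fell, against 11.9% and 17.0% of genes. The median member difference was then −0.47, and the median over all genes −0.01.

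Between neighbouring stages the calls were confined to the last step. Mid-late against mid gave no call among members in limma (background 0% higher and 0.0142% lower; at an unadjusted p under 0.05, 1 higher and 2 lower). Late against mid-late likewise gave no call in limma (background 0% higher and 0.00708% lower; at an unadjusted p under 0.05, 2 higher and 2 lower). Very-late against late gave 1 higher and 13 lower, where 10.2% of genes were higher and 11.2% lower, and the median member difference was −0.44 beside 0.01 over all genes. Members gave brighter signals than most genes, with a median level of 8.62 against 5.18, and bright probe sets were called more often. Among the 1348 genes with a mean at or above the members' median, 30.4% were lower at very-late than at late, beside 9 of the 16 members at that level, and 64.2% passed the test of any stage difference, beside 13 of 16. From early to very-late, 40.1% of those 1348 genes were lower and 13.8% higher, beside 12 and 1 of the 16 members. Each very-late comparison with early or late reuses the same 4 very-late arrays.

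**Figure D1:**
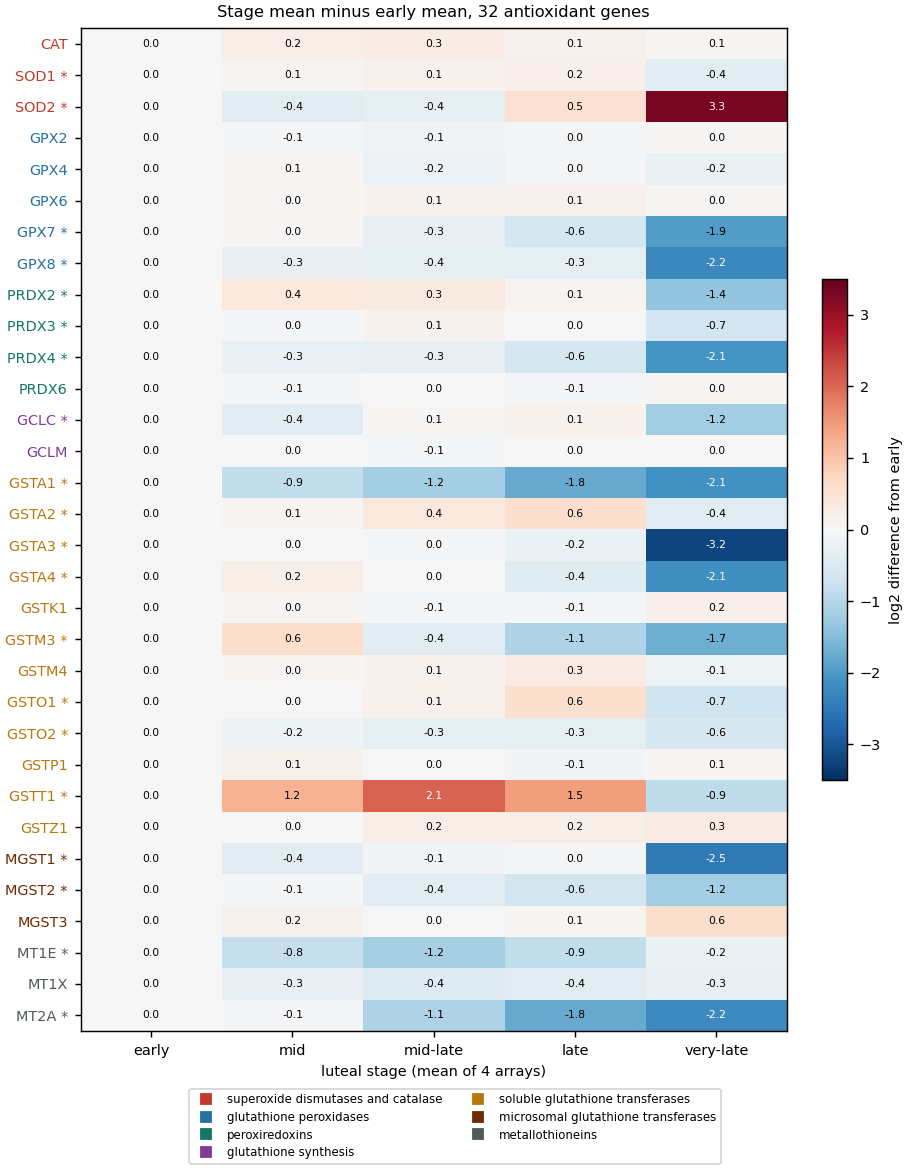
Heat map of each gene's stage mean minus its early mean (log2; 4 arrays per stage), with genes as lines grouped by class in the colour of their names and stages as columns; an asterisk marks an adjusted p under 0.05 for any stage difference. The deepest blue (lower) cells stand in the very-late column, led by GSTA3 at −3.20, and SOD2 is the deepest red, at 3.33 above early.

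SOD2, the manganese superoxide dismutase of the mitochondrial matrix, rose at the very-late stage by the largest amount in the group. Its values were 7.98, 7.69, 8.40 and 7.86 at early, 7.72, 7.26, 7.74 and 7.73 at mid, 7.40, 7.76, 7.84 and 7.52 at mid-late, 7.95, 8.44, 8.69 and 9.03 at late, and 11.41, 11.85, 10.76 and 11.21 at very-late. The lowest very-late array lay above every array of the other 16. The very-late mean exceeded the late mean by 2.78 ± 0.23 (SE of the limma fit, here and below; 6.88-fold; adjusted p = 1.81e-07) and the early mean by 3.33 ± 0.23 (10.0-fold; adjusted p = 1.35e-08). At the late stage the mean was 0.90 ± 0.23 above mid-late, which did not pass the adjustment (limma, adjusted p = 0.253). A second, dimmer SOD2 probe set with a mean of 6.03 had no stage difference called (adjusted p = 0.365), and the mean of both rose by 1.41 from late to very-late.

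SOD1, the copper-zinc dismutase of the cytosol, moved the other way and by much less. Its 4 very-late values of 10.36, 10.56, 10.41 and 10.74 lay below the late values of 10.86, 11.07, 11.12 and 11.27, and below the other 12 arrays, which ran from 10.81 to 11.16. It fell by 0.56 ± 0.10 from late (adjusted p = 0.000673) and by 0.37 ± 0.10 from early (adjusted p = 0.0118). The difference from early was 0.15 in size and not called with cyclic loess scaling (adjusted p = 0.255), nor without very-late replicates 1 and 2 (adjusted p = 0.0991). Within each array, SOD2 minus SOD1 ran from 0.35 to 1.29 at very-late and from −2.91 to −2.24 at late. The mean of that log2 difference changed by 3.35. That change holds for the brightest SOD2 probe set only. The second SOD2 probe set differed by 0.03 ± 0.26 between late and very-late (limma, adjusted p = 0.963). Catalase, which splits hydrogen peroxide in peroxisomes, stayed near the floor, with stage means from 4.19 to 4.46 and no stage difference called (adjusted p = 0.560).

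Of the 5 glutathione peroxidases, GPX7 and GPX8, which act in the endoplasmic reticulum, fell, and the other 3 were not called. GPX7 read 7.05, 7.01, 7.10 and 7.17 at early, 6.95, 7.12, 7.22 and 7.18 at mid, 7.02, 6.70, 6.58 and 6.86 at mid-late, 6.40, 6.34, 6.42 and 6.76 at late, and 4.69, 4.79, 5.34 and 5.73 at very-late. Late arrays all lay under the early ones, and very-late arrays under all others. Its change from early was −0.60 ± 0.17 at late (adjusted p = 0.0372) and −1.94 ± 0.17 at very-late (adjusted p = 2.26e-07), and from late to very-late −1.34 ± 0.17 (adjusted p = 2.47e-05). The late call was lost in 7 of the 20 fits that left out 1 array, namely each of the 4 early arrays and late replicates 1, 2 and 3 (adjusted p from 0.0611 to 0.103).

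GPX8 held between 9.10 and 10.26 on the 16 arrays up to the late stage and then read 7.62, 6.61, 8.01 and 8.20. The late values, 9.10, 9.57, 9.73 and 9.81, did not overlap with these. Its drop was −1.94 ± 0.26 from late (adjusted p = 5.07e-05) and −2.25 ± 0.26 from early (adjusted p = 6.32e-06). Its second probe set was called lower in both comparisons but was dim. The stage means of that probe set ran from 4.34 to 4.62 up to late and were 3.39 at very-late, beside the floor of 4.29. GPX4, the selenoprotein that reduces lipid peroxides in membranes, kept stage means between 11.51 and 11.81 and was not called (adjusted p for any stage difference = 0.464).

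Of the 4 peroxiredoxins, thiol peroxidases that differ in their compartment, 3 were lower at very-late. PRDX4, the peroxiredoxin of the endoplasmic reticulum, gave 10.73, 10.97, 10.67 and 10.96 at early, 10.52, 10.55, 10.62 and 10.62 at mid, 10.51, 10.58, 10.38 and 10.70 at mid-late, 10.05, 10.17, 10.30 and 10.32 at late, and 9.02, 8.27, 8.85 and 8.87 at very-late. Its late arrays lay below every early array, and its very-late arrays below all 16 others. It fell by 0.62 ± 0.13 from early to late (adjusted p = 0.00475) and by 1.46 ± 0.13 from late to very-late (adjusted p = 2.96e-07), in all by 2.08 ± 0.13 (adjusted p = 3.04e-09).

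PRDX3, the mitochondrial member of the family, had values from 10.78 to 11.28 on the 16 arrays up to the late stage and read 10.26, 10.68, 10.25 and 10.57 at very-late. Against the late values of 11.09, 11.11, 11.11 and 11.12 the difference was −0.67 ± 0.10 (adjusted p = 0.000160), and against early −0.68 ± 0.10 (adjusted p = 8.66e-05). With cyclic loess scaling the latter was −0.45, still called. Of the 3 other PRDX3 probe sets, 2 were called lower than at late as well, and 1 of them was already lower at late than at early (−0.59 ± 0.12, adjusted p = 0.00548), so the timing differs between probe sets. PRDX2, a cytosolic peroxiredoxin abundant in red cells, split the very-late arrays: replicates 3 and 4 read 8.93 and 8.85, and replicates 1 and 2 read 7.50 and 6.84. All 4 were below the late values of 9.56, 9.37, 9.56 and 9.58 and the early values of 9.33, 9.49, 9.51 and 9.34, with mid and mid-late arrays between 9.57 and 9.95. The difference was −1.48 ± 0.31 from late (adjusted p = 0.00269) and −1.38 ± 0.31 from early (adjusted p = 0.00332), but −0.62 and −0.52 without very-late replicates 1 and 2, and not called when only the arrays of the 2 stages entered the fit (adjusted p = 0.0779 and 0.0887). Of its 2 other probe sets, 1 was called lower than at late and both lower than at early. The probe set called only against early was near the floor of 4.29, with means of 4.56 at early and 4.29 at very-late. It did not pass the limma test over all stages (adjusted p = 0.193). PRDX6 was at background throughout.

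Glutamate-cysteine ligase, the first enzyme of glutathione synthesis, changed in its catalytic subunit. GCLC gave 11.00, 11.13, 11.62 and 10.86 at early, 10.10, 10.79, 11.06 and 11.07 at mid, 10.97, 11.57, 10.95 and 11.33 at mid-late, 10.86, 11.44, 11.54 and 11.25 at late, and 9.64, 9.60, 9.98 and 10.54 at very-late. Very-late values did not overlap with early or late ones, while mid replicate 1 reached into their range. The very-late mean was lower than late by 1.33 ± 0.24 (change −1.33, adjusted p = 0.000841) and than early by 1.21 ± 0.24 (change −1.21, adjusted p = 0.00131). GCLM, the modifier subunit, was not called (adjusted p for any stage difference = 0.975), with all 20 arrays between 7.35 and 7.92.

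The 5 GCLC probe sets did not share 1 time course. The brightest 2 held up to the late stage and were lower at very-late than at late. The other 3, of which 1 has a stage maximum of only 4.47, were already lower at late than at early, by −1.40, −1.51 and −1.07 (adjusted p = 0.0104, 0.0377 and 0.0377), and were not called between late and very-late. All 5 were lower at very-late than at early. Averaged over the 5, the late to very-late difference was −0.85, so the timing of the GCLC decline depends on the probe set read.

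**Figure D2:**
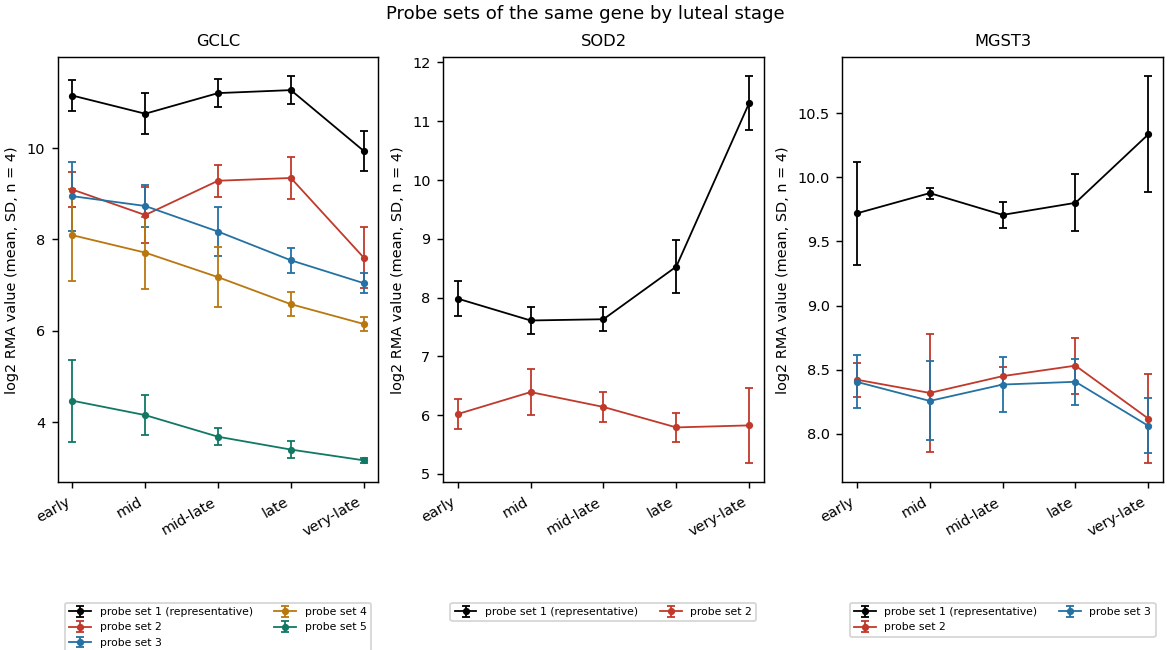
Stage means with SD (log2 RMA value, n = 4) for every probe set annotated to GCLC, SOD2 or MGST3 alone, numbered from the brightest, which stands for the gene elsewhere. The brightest 2 GCLC probe sets stay level to the late stage where the other 3 decline from early, and the very-late rise of SOD2 and MGST3 is seen in the brightest probe set only.

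Soluble glutathione transferases were the largest class, with 12 genes, and GSTA3 of the alpha class had the steepest decline at the last step, followed by GSTT1 of the theta class. GSTA3, an alpha-class enzyme known also as a steroid double-bond isomerase, was level until the late stage. Its arrays read 11.97, 12.30, 12.58 and 12.31 at early, 12.20, 12.06, 12.59 and 12.36 at mid, 12.33, 12.39, 12.12 and 12.19 at mid-late, 11.79, 12.23, 12.20 and 11.97 at late, and 9.17, 7.64, 9.60 and 9.93 at very-late. The highest very-late array, at 9.93, lay under the lowest of the other 16, at 11.79. GSTA3 was 7.78-fold lower at very-late than at late (−2.96 ± 0.32, adjusted p = 4.07e-06) and 9.20-fold lower than at early (−3.20 ± 0.32, adjusted p = 9.61e-07), and its second probe set was called too. The probe set shown carries a suffix for probes that can match related transcripts, so some signal may come from other alpha-class genes.

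GSTA4, an alpha-class enzyme that conjugates the lipid peroxidation product 4-hydroxynonenal, had the same direction. It read 8.95, 9.29, 8.68 and 9.07 at early, from 8.56 to 9.54 on the mid and mid-late arrays, 9.05, 8.33, 8.40 and 8.49 at late, and 6.64, 5.84, 7.54 and 7.40 at very-late. No very-late array overlapped with another stage, and the differences were −1.71 ± 0.29 from late (adjusted p = 0.000443) and −2.14 ± 0.29 from early (adjusted p = 2.96e-05). Without very-late replicates 1 and 2 the difference from late was −1.10, still called.

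GSTA1 followed an earlier course, with its decline spread over luteal life. Its values were 8.48, 8.11, 6.0 and 7.54 at early, 6.72, 6.47, 6.32 and 7.22 at mid, 6.17, 6.03, 6.67 and 6.51 at mid-late, 5.79, 5.95, 5.76 and 5.63 at late, and 5.39, 5.35, 5.52 and 5.36 at very-late. Early glands spread widely, replicate 3 lying just under the lowest mid-late array, yet all late and very-late arrays were under all early ones. The change from early was −1.75 ± 0.35 at late (adjusted p = 0.00470) and −2.13 ± 0.35 at very-late (adjusted p = 0.000233), both also called in the second probe set, and the last step of −0.38 ± 0.35 was not called (adjusted p = 0.595). GSTA2, its direct neighbour in the RefSeq gene order with no protein-coding gene between, did otherwise: it read 8.38, 9.24, 9.02 and 8.96 at late and 8.02, 7.42, 8.26 and 8.04 at very-late, a difference of −0.96 ± 0.23 (adjusted p = 0.00824) that was called in its second probe set too. Very-late GSTA2 overlapped with early and was not called lower than it (−0.39 ± 0.23, adjusted p = 0.314). Its call from late to very-late was lost without very-late replicates 1 and 2 (−0.75, adjusted p = 0.107). The test over all stages for GSTA2 was lost in 10 of the 20 fits with 1 array left out: early replicate 2, mid-late replicates 1, 3 and 4, late replicates 2, 3 and 4, and very-late replicates 1, 2 and 4 (adjusted p up to 0.0843).

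GSTT1, of the theta class, rose and then fell. Its arrays gave 7.13, 7.72, 6.42 and 5.57 at early, 7.01, 8.49, 8.12 and 8.10 at mid, 8.59, 8.73, 8.77 and 9.06 at mid-late, 8.58, 7.96, 8.25 and 7.91 at late, and 6.19, 4.99, 5.54 and 6.59 at very-late. Mid-late and late arrays lay above all early ones, and very-late arrays lay below all mid-late and late ones but overlapped with early. It rose by 2.08 ± 0.40 from early to mid-late (adjusted p = 0.00800) and by 1.47 ± 0.40 from early to late (adjusted p = 0.0316), then fell by 2.35 ± 0.40 from late to very-late (adjusted p = 0.000483). The late rise was lost without early replicate 3 or 4 or without any 1 of the 4 late arrays (adjusted p from 0.0501 to 0.109), and with a replicate block (adjusted p = 0.0587).

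GSTO1, an omega-class enzyme with thioltransferase activity, rose modestly into the late stage and then fell below its starting level. Its late values of 9.04, 9.02, 9.27 and 9.42 exceeded the early values of 8.49, 8.72, 8.43 and 8.82, and the very-late values of 7.98, 7.83, 8.08 and 7.82 lay under every other array (mid and mid-late from 8.25 to 8.82). The 3 differences were 0.57 ± 0.12 for late against early (adjusted p = 0.00577), −1.26 ± 0.12 for very-late against late (adjusted p = 8.38e-07) and −0.69 ± 0.12 for very-late against early (adjusted p = 0.000344). GSTO2, which adjoins GSTO1 in the RefSeq order, was close to the floor, with stage means from 3.79 to 4.34, and only its early mean was above it. It was called lower than early at mid-late, late and very-late (adjusted p = 0.0379, 0.0304 and 0.000144), but its means at those stages, 4.01, 4.02 and 3.79, are at background, so no size of change is given. The mid-late call was lost without early replicate 1 or 3 or any 1 mid-late array (adjusted p from 0.0582 to 0.132), and the late call without early replicate 3 or late replicate 1, 2 or 3 (adjusted p from 0.0593 to 0.113).

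GSTM3, a mu-class transferase, varied most within stages. It read 11.06, 11.65, 10.01 and 9.17 at early, 11.38, 10.77, 10.88 and 11.32 at mid, 9.60, 10.99, 9.68 and 10.13 at mid-late, 9.66, 8.99, 9.39 and 9.55 at late, and 8.50, 8.40, 8.75 and 9.38 at very-late. It was lower at very-late than at early by 1.72 (−1.72 ± 0.41, adjusted p = 0.00566), with early replicate 4 inside the very-late range. That call was lost without very-late replicates 1 and 2 (−1.41, adjusted p = 0.0773) and when only early and very-late arrays were fitted (adjusted p = 0.0681), and its second probe set was under the floor, with a stage maximum of 3.93. GSTM4, GSTP1, GSTK1 and GSTZ1 were not called in the test over all stages. GSTP1, the pi-class enzyme, held stage means from 10.75 to 11.00.

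Of the 3 microsomal transferases, membrane proteins of the endoplasmic reticulum, 2 were lower at very-late than at early. MGST3 was called higher, but in its brightest probe set only. MGST1 read 10.01, 10.27, 10.81 and 10.61 at early, 10.58, 9.32, 10.66 and 9.62 at mid, 10.20, 10.91, 10.04 and 10.13 at mid-late, 9.88, 10.45, 10.91 and 10.27 at late, and 7.77, 6.80, 8.26 and 8.93 at very-late. Very-late arrays did not overlap with any other stage. MGST1 fell by 2.44 ± 0.38 from late (adjusted p = 0.000214) and by 2.49 ± 0.38 from early (adjusted p = 0.000116), in both of its probe sets. MGST2, whose relatives include leukotriene C4 synthase, declined gradually: 9.87, 10.06, 10.30 and 10.27 at early, 10.19, 10.39, 10.16 and 9.55 at mid, 10.03, 9.80, 9.51 and 9.59 at mid-late, 9.44, 9.40, 9.53 and 9.62 at late, and 9.25, 8.39, 8.74 and 9.33 at very-late. Its total change was −1.20 ± 0.19 from early to very-late (adjusted p = 0.000193) with no overlap, and the late step from early, −0.63 ± 0.19, was just short of a call (adjusted p = 0.0569).

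MGST3 was higher at very-late than at early by 0.62 ± 0.19 (adjusted p = 0.0314), in 4 of 4 arrays against all early arrays. The call was lost without early replicate 4 (0.42, adjusted p = 0.123) or very-late replicate 2 (0.39, adjusted p = 0.102), and with median centring (adjusted p = 0.05002). Its other 2 probe sets had differences of the opposite sign that were not called (−0.30 ± 0.19 and −0.34 ± 0.15, adjusted p = 0.330 and 0.145), and the mean of the 3 differed by −0.01 (adjusted p = 0.966). The test over all stages was not passed (adjusted p = 0.0963).

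MT2A and MT1E, metallothioneins with 1 gene between them in the RefSeq order, followed different courses. MT2A gave 12.83, 12.76, 13.15 and 13.55 at early, 13.24, 13.04, 12.96 and 12.77 at mid, 12.35, 12.28, 11.45 and 11.89 at mid-late, 10.05, 11.87, 11.79 and 11.53 at late, and 10.68, 11.15, 10.72 and 10.88 at very-late. Every mid-late, late and very-late array lay under every early array. The change from early was −1.08 ± 0.31 at mid-late (adjusted p = 0.0608, not called), −1.76 ± 0.31 at late (adjusted p = 0.00176) and −2.22 ± 0.31 at very-late (adjusted p = 4.04e-05), and late replicate 1 was the lowest of all 20 arrays.

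MT1E fell after the early stage but was not called lower at very-late. Its arrays read 10.42, 9.89, 10.52 and 11.72 at early, 9.85, 10.18, 9.70 and 9.62 at mid, 9.55, 9.23, 9.52 and 9.57 at mid-late, 9.93, 9.54, 9.67 and 9.99 at late, and 10.38, 10.60, 10.31 and 10.31 at very-late. It fell from early to mid-late by 1.17 ± 0.25 (adjusted p = 0.0152; no overlap; 0.0777 when only those arrays were fitted). At late it was 0.86 below early (−0.86 ± 0.25, adjusted p = 0.0470), with overlap of early replicate 2. The late call was lost in 17 of the 20 fits with 1 array left out, all except mid replicate 2, early replicate 2 and very-late replicate 2, with adjusted p up to 0.128, and the difference shrank to −0.50 without early replicate 4. Very-late MT1E differed from early by −0.24 ± 0.25 (adjusted p = 0.617), and from late by 0.62 ± 0.25, above it in 4 of 4 arrays but not called (adjusted p = 0.133). Within arrays, MT1E minus MT2A ran from −2.87 to −1.83 at early and from −0.57 to −0.30 at very-late. The mean of that log2 difference changed by 1.98. Late replicate 1, at −0.12, was the only late array as high. The MT1E probe set has the suffix for shared probes, so other metallothionein 1 transcripts may add to it. MT1X, farther along the same cluster, had stage means from 7.17 to 7.62 and was not called (adjusted p = 0.0784).

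**Figure D3:**
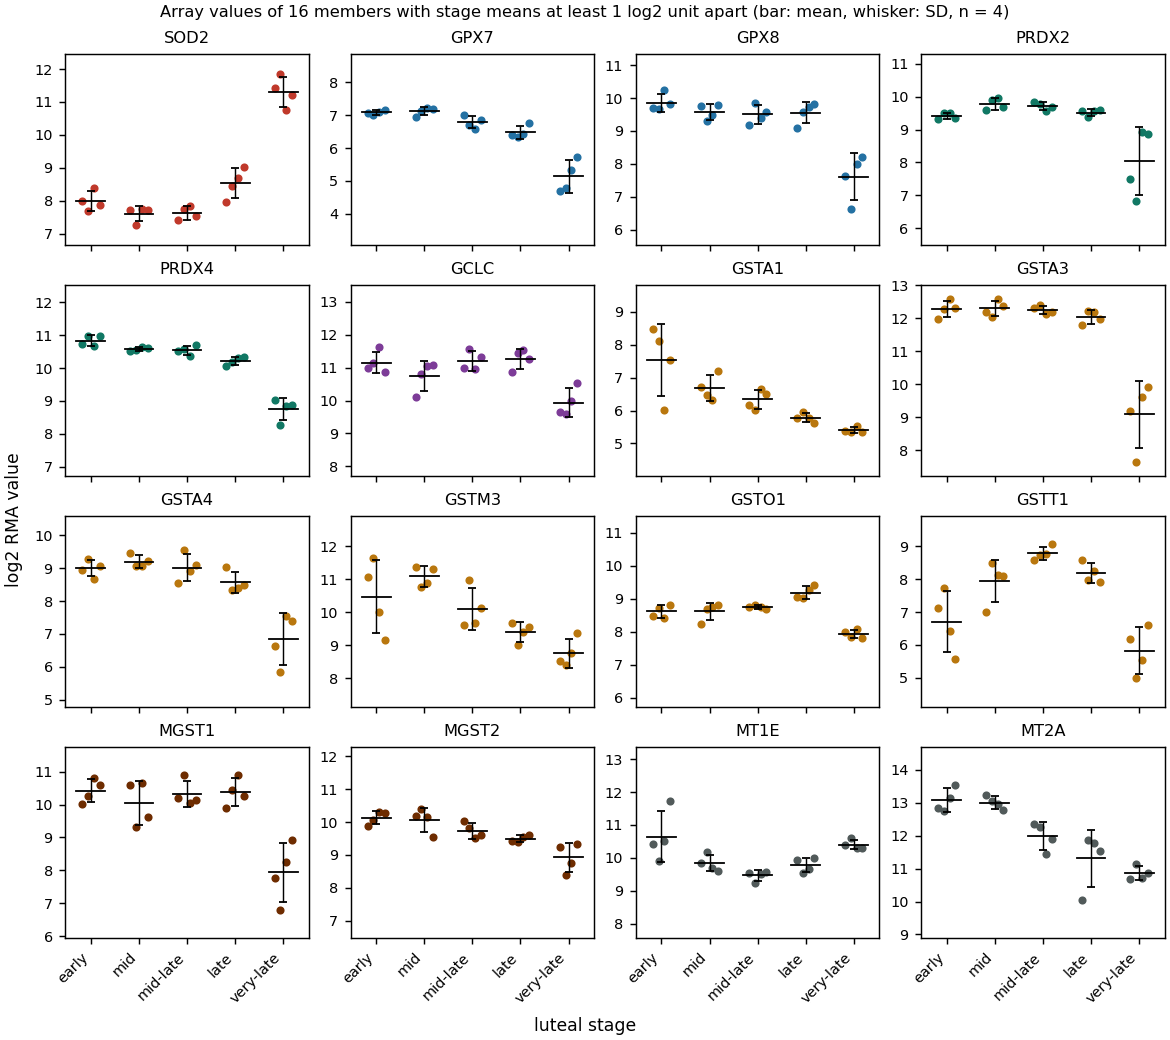
Log2 RMA value of each array (points, replicates 1 to 4 from left to right) by luteal stage for the 16 genes that passed the test over all stages and whose stage means spanned at least 1 log2 unit; bars are means, whiskers SD (n = 4), and all panels cover the same span. The very-late points of SOD2 stand above all others, those of GSTA3, GPX8, GPX7, PRDX4 and MGST1 below all others, and GSTT1 has its highest points at mid-late.

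Seen by class, the last step took 3 of 4 peroxiredoxins, 2 of 5 glutathione peroxidases, 1 of the 2 ligase subunits, 5 of 12 soluble transferases and 1 of 3 microsomal transferases down, where 11.2% of all genes and 30.4% of those at the members' brightness were lower. At that step none of the 3 metallothioneins among the members was called in limma (1 higher, MT1E, at an unadjusted p under 0.05). Both genes called among dismutases moved in opposite directions. Very-late replicate 2 had the lowest GSTA3, GPX8, GSTA4, MGST1, PRDX2, PRDX4 and GSTT1 of all 20 arrays and the highest SOD2. That array also had the lowest correlation with its stage, 0.973, and was the only very-late array with low mitochondrially encoded probe sets, at 7.22. Leaving out very-late replicates 1 and 2 together, 1 member was higher and 12 were lower at very-late than at late.

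**Figure D4:**
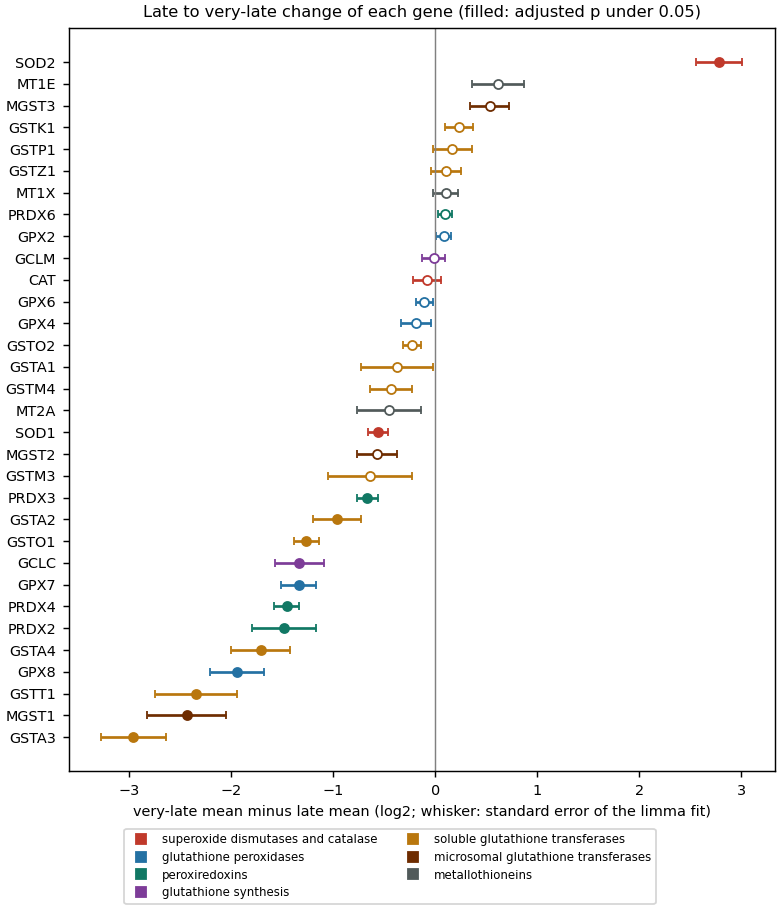
Very-late mean minus late mean of all 32 genes on the log2 scale, ordered by size, with the standard error of the limma fit as whiskers; filled points have an adjusted p under 0.05. One filled point, SOD2 at 2.78, lies to the right of 0 and 13 lie to the left, down to GSTA3 at −2.96.

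Cell type markers moved with these changes. Summed over 6 measured luteal steroid-cell genes, the log2 level was 14.3 to 14.8 on all arrays up to the late stage and 11.2 to 12.4 at very-late, and 6 of 6 were lower at very-late than at late. The sum hid earlier changes in single genes. At late against early, limma called CYP19A1 higher (2.03 ± 0.47, adjusted p = 0.0110) and HSD3B2 lower (−2.65 ± 0.37, adjusted p = 0.000324). That was 1 of 6 each way, where 4.22% of all genes were higher and 8.07% lower. In a whole gland, fewer cells of a type and less RNA per cell cannot be told apart. STAR read 8.11, 8.05, 9.88 and 10.55 on the 4 very-late arrays, low in the same replicates 1 and 2 as PRDX2, GSTA3 and MGST1. The 10 measured monocyte and macrophage markers summed to 10.9 to 11.0 at early, 9.75 to 10.2 at mid, 9.71 to 11.5 at mid-late, 11.2 to 12.2 at late and 13.4 to 14.2 at very-late, and 6 of 10 were higher at very-late than at late. CD68 and CYBB were, like SOD2, highest in very-late replicate 2, at 11.49 and 11.38. Of the other lists, 3 of 9 endothelial and 2 of 5 fibroblast and pericyte markers were lower at very-late than at late, 2 of 5 T and NK cell markers were higher and 1 lower, and none of 4 erythrocyte and 4 neutrophil markers was called in limma (0 and 1, MPO, at an unadjusted p under 0.05). The summed level of the T and NK cell list fell, from 11.9 to 12.2 on the late arrays to between 9.95 and 11.1 on the very-late arrays. The part of cell make-up in the changes of the antioxidant genes was not tested.

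**Figure D5:**
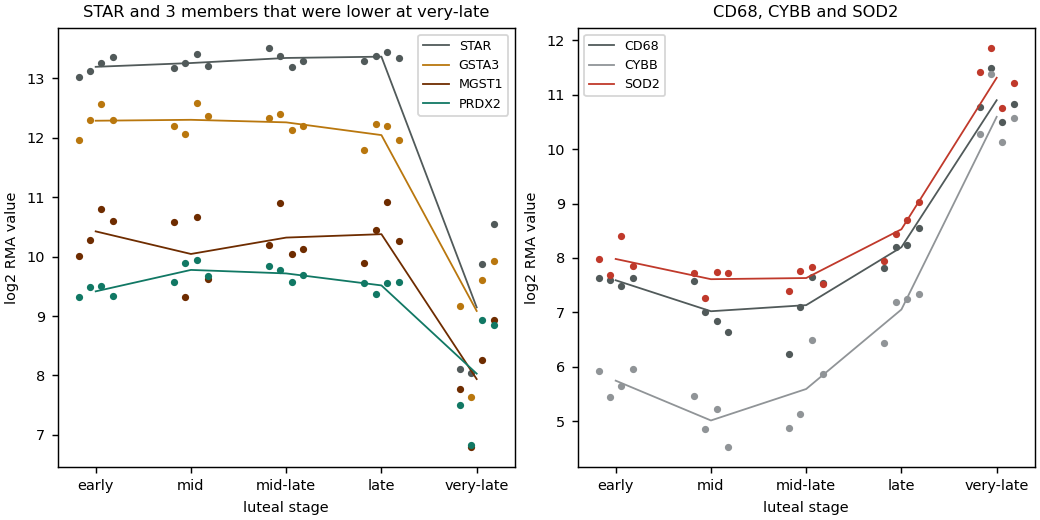
Log2 RMA values by stage (points: arrays, replicates 1 to 4 from left to right; lines: stage means of 4 arrays) of STAR with GSTA3, MGST1 and PRDX2 on the left, and of the macrophage genes CD68 and CYBB with SOD2 on the right; heights of different genes are not comparable. All 4 genes on the left are lowest in very-late replicate 2, and all 3 on the right are highest there. That array also had the lowest correlation with its stage, 0.973, and low mitochondrially encoded probe sets, at 7.22.

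Other genes of the same pathways were counted from fixed lists. Among genes listed as sources of superoxide or hydrogen peroxide, enzymes and regulators alike, 6 of 9 measured were higher at very-late than at late. The share over all genes was 10.2%. RAC2, the small GTPase of the phagocyte NADPH oxidase, rose by 3.76 ± 0.25 (adjusted p = 1.70e-08), its catalytic subunit CYBB by 3.54 ± 0.33 (adjusted p = 6.75e-07) and its regulator NCF4 by 2.10 ± 0.30 (adjusted p = 9.30e-05). CYBB stands in the macrophage list too, and the part of cell make-up in these rises was not tested. Among 18 measured regulators and other targets of NRF2, the transcription factor that drives many antioxidant genes, 8 were higher and 2 lower, where 10.2% of all genes were higher and 11.2% lower, so the share that fell was that of all genes. BLVRB, a biliverdin reductase, rose by 1.48 ± 0.37 (adjusted p = 0.00944), SRXN1, which restores over-oxidised peroxiredoxins, by 1.39 ± 0.29 (adjusted p = 0.00236), and MAFF, a small MAF partner of NRF2, by 1.27 ± 0.19 (adjusted p = 0.000114), while EPHX1, microsomal epoxide hydrolase, fell by 1.31 ± 0.37 (adjusted p = 0.0236). At this same step the brightest probe sets of GCLC, GSTA2, GSTA3 and GSTA4 fell. Those of GCLM (−0.02 ± 0.12, adjusted p = 0.957) and GSTA1 (−0.38 ± 0.35, adjusted p = 0.595) were not called in limma.

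NADPH, which keeps glutathione and thioredoxin reduced, is supplied by enzymes of which 7 were measured; 1 was higher and 3 were lower at the last step, where the shares over all genes were 10.2% and 11.2%. ME3, the mitochondrial malic enzyme, fell by 1.14 ± 0.20 (adjusted p = 0.000505) and IDH1, cytosolic isocitrate dehydrogenase, by 0.83 ± 0.15 (adjusted p = 0.000616) from late to very-late, ME1 fell too, and TALDO1 of the pentose phosphate pathway rose by 0.74 ± 0.15 (adjusted p = 0.00221). Of 14 measured repair and other redox enzymes, 5 fell and 1 rose, beside the same 11.2% and 10.2% of all genes. MSRB2, a mitochondrial methionine sulfoxide reductase, fell by 1.44 ± 0.21 (adjusted p = 9.06e-05), and its selenoprotein relative MSRB1 rose by 0.75 ± 0.14 (adjusted p = 0.000986). Among 10 metal-handling genes 4 rose and 2 fell, against 10.2% and 11.2% of all genes: MT3, a further metallothionein outside the rule, fell by 1.85 ± 0.43 (adjusted p = 0.00594), and MTF1, the zinc sensor that switches on metallothionein genes, rose by 0.50 ± 0.12 (adjusted p = 0.00962). Of 11 other glutathione genes, 1 rose (ABCC4, an efflux pump) and 1 fell (GLRX5, a mitochondrial glutaredoxin) at that step, close to the 10.2% and 11.2% of all genes. Against early, 2 were higher and 5 lower at very-late, where 11.9% and 17.0% of all genes were.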

How the data were processed

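Per the submitters' processing notes, the authors summarised the arrays with RMA, and the deposited values are log2 expression values per probe set. The version and the chip definition are not given in the sources used here. The table holds 52865 probe sets, of which 158 are controls; the remaining 52707 all entered the test, however low their values. Symbols came from the platform annotation: 24956 probe sets had 1 symbol and 361 several. With R 4.3.3 and limma 3.58.1, the 5 stage means were fitted over 20 arrays (15 residual and 2.75 prior degrees of freedom), and p-values were adjusted by Benjamini-Hochberg over all 52707 probe sets, calls being two-sided at an adjusted p under 0.05. The fit was tested on simulated data. The number of arrays, 4 per stage, limits the precision.

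The members and lists were chosen with earlier results of these data known. Array values are given for members past the test over all stages with stage means spanning 1 or more, and up to 3 genes per direction are named from a pathway list. Current RefSeq tables held 31 of the 32 symbols (all but GPX6). Gene order is RefSeq's. No genome coordinates or sequences are printed. Same-numbered arrays of different stages were not treated as paired. Their deviations correlated from −0.21 to 0.21, over 0.1 in 6 of 40 pairs. For differently numbered arrays of different stages the range was −0.23 to 0.39, over 0.1 in 31 of 120 pairs. Alternatives covered scaling, filtering, the prior, array weights, a replicate block, the choice of probe set, the threshold and the arrays included.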

Additional observations from a re-analysis of the deposited data

Results flagged for a closer look

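In 7 of 160 groups of 4 arrays (32 genes by 5 stages), 1 array stood apart from the other 3 by Dixon's test, where chance gives about 1 in 20. CAT read 4.512 in early replicate 1 against 4.069 to 4.118 in the others. GPX4 read 11.919 in mid-late replicate 1 against 11.390 to 11.438. MGST3 read 11.007 in very-late replicate 2 against 10.052 to 10.178. MT1E read 9.226 in mid-late replicate 2 against 9.525 to 9.574, and MT1X 7.954 in early replicate 4 against 7.498 to 7.528. PRDX2 read 9.373 in late replicate 2 against 9.555 to 9.578, and SOD2 7.257 in mid replicate 2 against 7.722 to 7.737.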

How the results depend on the processing

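Over 33 alternative settings, 39 of the 63 called results of single genes lost no call. From early to mid-late the count of 3 called genes was 6 without dim probe sets, with array weights, with 1 probe set per gene and when a gene's probe sets were averaged, 5 with a term for the mitochondrial split and without very-late replicates 1 and 2 together, and 1 (GSTT1) at an adjusted p under 0.01. From early to late the count of 8 was 3 when at least 2-fold was required and 4 at an adjusted p under 0.01. Late against mid-late gave 1 call (SOD2) with array weights. MGST3 reversed to −0.010 with the mean of its probe sets, the other 2 of which differ by −0.30 and −0.34. Leaving out 1 array at a time gave 19 to 21 genes past the test over all stages, 0 to 1 for mid against early, 2 to 4 for mid-late against early, 4 to 9 for late against early, 17 to 19 for very-late against early, 14 to 16 for very-late against late, and 0 for the other 2 steps. With the replicate number as a block, a number the arrays share by label only, the counts were 20 for all stages, 0, 3, 6 and 18 for the 4 later stages against early in their order, and 0, 0 and 14 for the 3 steps after mid. Scaling moved the median gene by less than 0.1. The median member moved more. For very-late against early its difference was −0.47 as deposited, −0.35 with cyclic loess scaling and −0.51 with median centring. For very-late against late it was −0.44, −0.35 and −0.47 in that order. Members near the viral-genome level (GPX2, GPX6, PRDX6, GSTO2, CAT) are limited by signal over background.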

Other observations

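TXN, thioredoxin, has no probe set of its own, but 1 probe set annotated to it and other genes together fell and recovered over luteal life. Its stage means were 11.47 ± 0.39 (SD, n = 4) at early, 10.89 ± 0.35 at mid, 10.49 ± 0.28 at mid-late, 9.79 ± 0.30 at late and 11.56 ± 0.34 at very-late. The last step was a rise of 1.78 ± 0.22 (SE; limma, adjusted p = 1.69e-05), in the direction of SOD2 and SRXN1 and opposite to PRDX2, PRDX3 and PRDX4. The probe set was looked at for its annotation after its values were seen, and its signal cannot be assigned to TXN alone.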
